A study of Mus musculus with 168 samples.

Results

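Mir674, Mir186 and Mir708 were examined in cortex as the 3 microRNAs picked, from earlier results of these libraries, for normalized counts that were lower at longer CAG lengths at 6 and 10 months. Each is 1 row of the count table, found by the gene name that GENCODE vM21 gives its Ensembl transcript, so the 3 make up 3 of 1626 transcripts and 3 of the 329 listed microRNAs that could be tested. They were chosen by the change with CAG length (Q) and the differences of genotypes from controls at 6 and 10 months. Those values are given below as a description, without a test. The mice were heterozygous knock-ins that carry a human HTT exon 1 of 20 to 175 CAG repeats in 1 Htt allele (lines Q20, Q80, Q92, Q111, Q140 and Q175), and wild type (WT) mice born in the same litters as Q20, with 7 repeats in the mouse Htt gene. The labels give cortex small RNA libraries at 2, 6 and 10 months from 8 mice, male and female, for each genotype and age, 168 libraries in all. The study's methods name WT cortex at 2 and 10 months and not at 6, so the origin of the 8 libraries labelled as 6-month WT is uncertain. Q20 and WT were the controls at 2 and 10 months, and Q20 alone at 6 months.

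A microRNA is cut from the hairpin of a longer primary transcript and loaded into Argonaute, where the bases of its seed (positions 2 to 8 from the 5′ end) pair with target mRNAs, which are then repressed. Many hairpins lie in introns of protein-coding genes and can be transcribed with the host gene. Mature arms of 1 hairpin have different seeds, and hairpins that share a seed form a family with overlapping targets. The table counts reads per hairpin transcript, so the 2 arms of a member could not be separated. The mature arms are shown because the seed decides which other microRNAs of the table belong to the same family. They were taken from RefSeq (GRCm38.p6), which held both arms of each member, and capitals mark the seed:

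mmu-miR-674-5p: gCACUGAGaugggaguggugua

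mmu-miR-674-3p: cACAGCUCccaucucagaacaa

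mmu-miR-186-5p: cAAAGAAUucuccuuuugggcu

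mmu-miR-186-3p: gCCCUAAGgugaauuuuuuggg

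mmu-miR-708-5p: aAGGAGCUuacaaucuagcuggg

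mmu-miR-708-3p: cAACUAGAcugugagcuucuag

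None of the 6 arms shared a seed with an arm of another member. The 5p arm of Mir708 has the seed of mmu-miR-28a-5p, and the 5p arm of Mir674 has that of mmu-miR-1947-3p and mmu-miR-3473d. These 3 relatives are shown for comparison with the arms above:

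mmu-miR-28a-5p: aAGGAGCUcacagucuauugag

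mmu-miR-1947-3p: gCACUGAGcuagcucucccucc

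mmu-miR-3473d: cCACUGAGccacuuuccagcccuu

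Mir186 and Mir708 lie inside protein-coding genes on the same strand, and Mir674 does not. In the annotation of GRCm38, the build called mm10 in the study's methods, Mir186 (ENSMUST00000083497) spans chr3:157544279-157544349 on the plus strand. That is intron 8 of a Zranb2 transcript with 10 exons. Zranb2 encodes a zinc finger protein that binds RNA and takes part in splicing. Mir708 (ENSMUST00000102189) spans chr7:96249424-96249532 on the plus strand, in intron 1 of a Tenm4 transcript with 33 exons. Tenm4 encodes a teneurin, a transmembrane protein that takes part in neuronal connection and myelination. Mir674 (ENSMUST00000102421) spans chr2:117185127-117185226 on the plus strand and overlaps no protein-coding gene on its strand. The nearest protein-coding gene on that strand is Spred1, an inhibitor of Ras signalling, which ends 2848 bases before the hairpin. Noncoding genes and genes on the other strand were not searched. Of the transcripts of Zranb2 and of Tenm4, 0 were in the count table, which holds microRNAs and almost no other named RNA, so levels of the host genes were not analysed here. Of the other microRNAs of the table, 0 lay within 200 kb of a member.

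**Figure D1:**
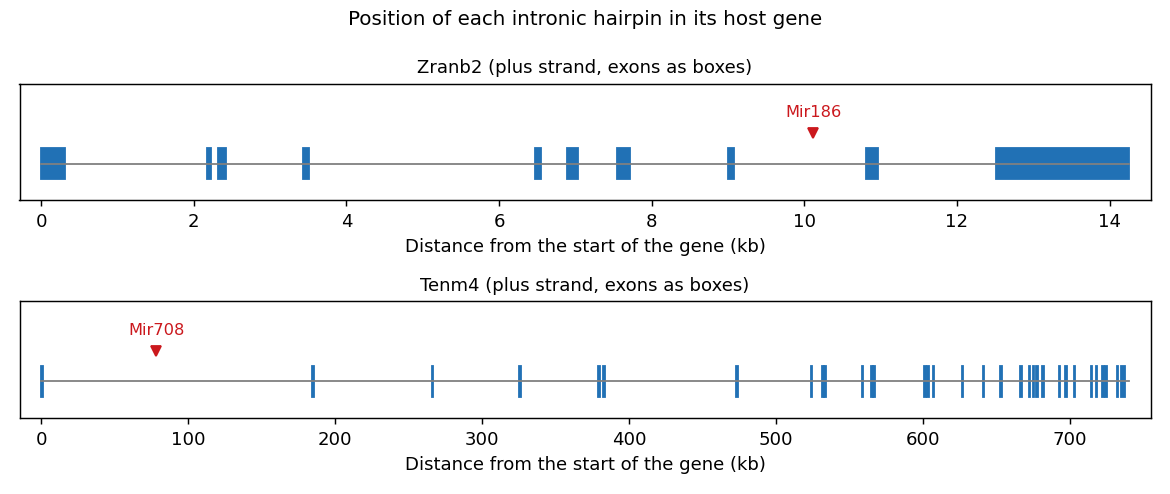
The exons (boxes) of Zranb2 and Tenm4 are drawn to scale by distance from the start of each gene in kb, with a triangle at the hairpin. Mir186 sits in intron 8 of the 10-exon Zranb2 transcript and Mir708 in intron 1 of the 33-exon Tenm4 transcript.

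The deposited values are estimated counts without normalization. A library held 2041741 to 11646287 counts, with a median of 4810487. Mir186 averaged 20864 counts per library, Mir708 averaged 4864 and Mir674 averaged 1680. The lowest count of a member in any library was 671, for Mir674, so the depth limits the precision of Mir674 most. All counts of Mir674 and Mir186 were whole numbers. Those of Mir708 were not whole in 98.2% of libraries, and the cause was not tested, so its level is less certain than that of the other 2. Markers of neurons (9 of 10 listed microRNAs in the table) summed to a median of 99397 CPM (counts divided by the effective library size of edgeR, on a scale common to all libraries), and Mir122, the marker of liver, had a median of 1.29 CPM. Of 160 libraries, 7 stood apart by the study's connectivity measure (Z.k under -5, 3 at 2 months and 4 at 10 months). The 8 libraries labelled as 6-month WT carry library numbers of another series than the other 6-month libraries. The numbers of those other 6-month libraries also differ in form from the numbers at 2 and 10 months. The 6-month WT libraries are given apart and entered no main fit with Q.

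Levels are given as TMM-normalized CPM from edgeR, over all 168 libraries. Within a genotype and age the SD of log2 CPM between mice was 0.113 for Mir674, 0.0710 for Mir186 and 0.110 for Mir708. These SDs were pooled over all 21 groups, with the 6-month WT libraries among them. In those libraries the SD of Mir708 was 277 CPM, against 39.9 CPM in 6-month Q20, which raised the pooled value of Mir708. Mir186 was therefore the least variable of the 3 between mice of 1 group.

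**Figure D2:**
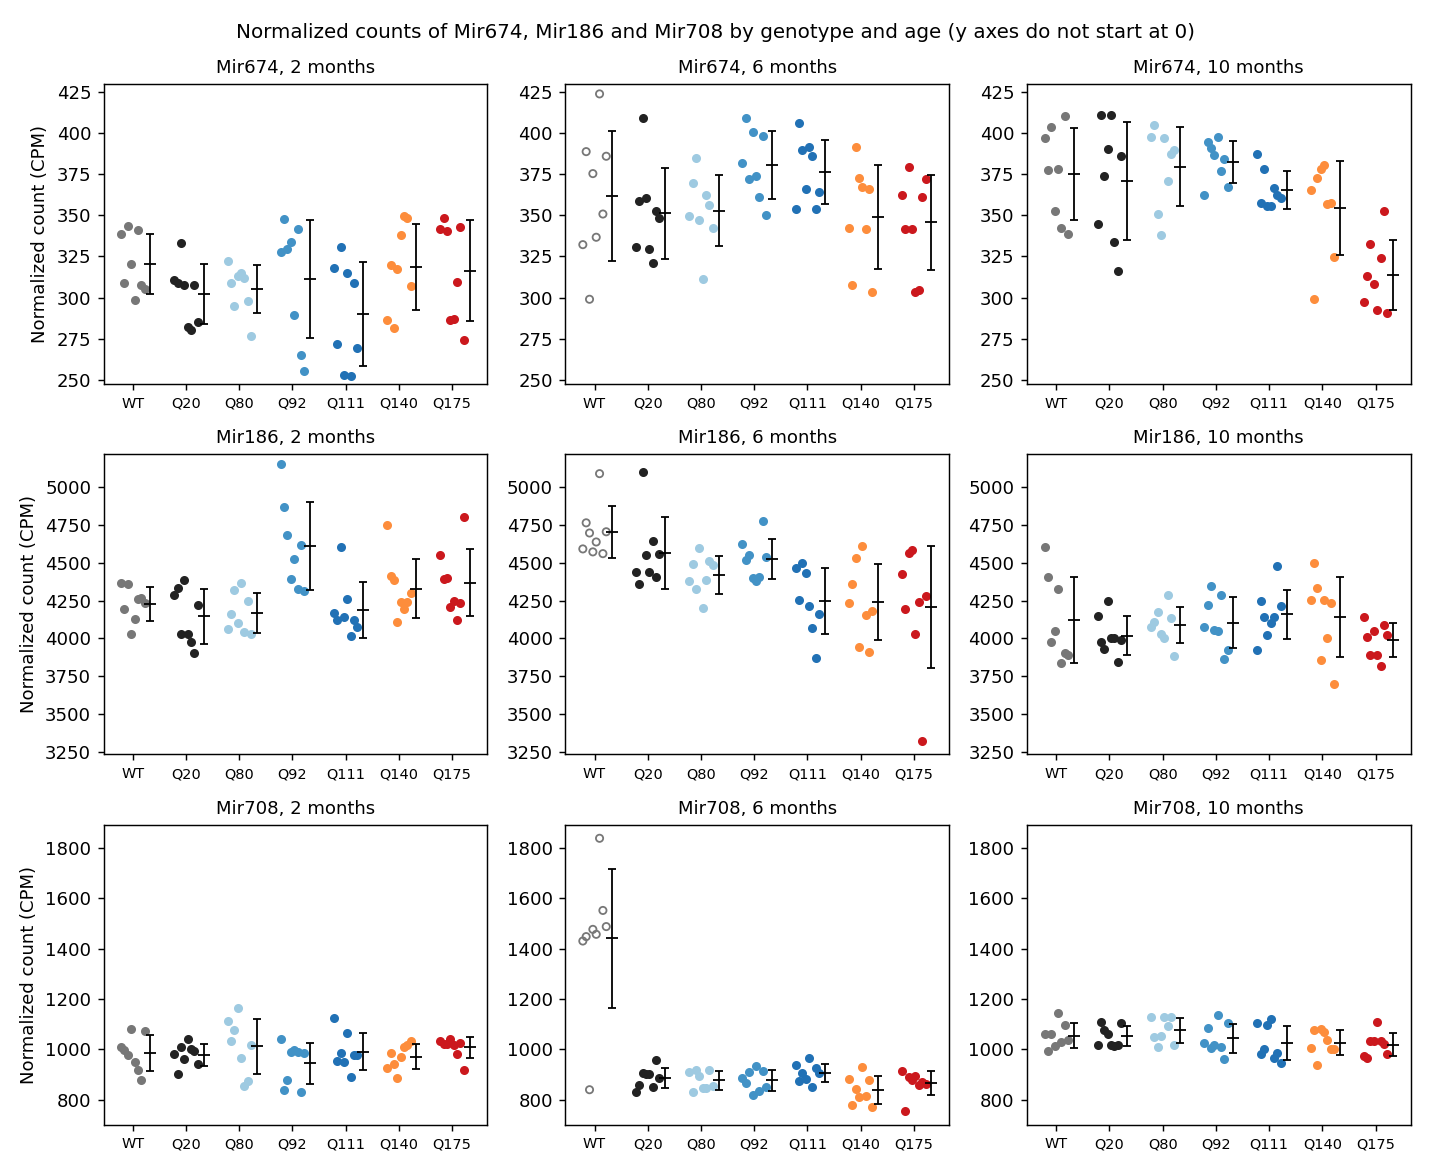
Each point is the normalized count (CPM) of 1 library, in columns by genotype and panels by microRNA (rows) and age (columns), with the mean and SD of the 8 libraries in black and the 6-month WT libraries as open points. The Q175 libraries of Mir674 at 10 months lie between 291 and 352 CPM, and 7 of 8 open points of Mir708 lie at 1431 CPM or above.

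Mir674 stood lower in Q175 cortex at 10 months. The 8 Q175 libraries lay at 291, 292, 297, 308, 313, 324, 332 and 352 CPM, and the 16 controls lay between 316 and 411 CPM with a median of 378. All 8 Q175 libraries were under the control median and 5 of 8 were under the lowest control, so the groups overlapped in 3 Q175 libraries. The means were 314 ± 21.5 CPM (SD, n = 8) in Q175 and 373 ± 31 CPM (SD, n = 16) in controls. The fitted log2 difference was -0.26 (SE 0.052), a fold of 0.833. By the same fit 40 of 327 microRNAs passed FDR 0.05 in either direction (12.2%), and this comparison was used in choosing the member. Among the 264 listed microRNAs with at least 10 counts per library on average, 22 (8.33%) had all 8 Q175 libraries under the control median.

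At 10 months the order of the mean level of Mir674 from high to low was Q92, Q80, WT, Q20, Q111, Q140 and Q175. In 5 of the 6 neighbouring pairs the gap was smaller than the pooled SD of 24.5 CPM, the exception being Q140 (354 CPM) and Q175. Against controls the log2 difference of Q80 was 0.019, that of Q92 was 0.028, that of Q111 was -0.036 and that of Q140 was -0.075, with SEs from 0.046 to 0.058. Per 100 CAG repeats the change at 10 months was -0.12 on the log2 scale (SE 0.029), in a fit that called 29 of 328 microRNAs (8.84%). Without the Q175 mice the change was -0.035 (SE 0.033). The Q175 libraries were lower than controls in females (313 against 381 CPM, 4 against 8 mice) and in males (315 against 365 CPM, 4 against 8 mice). By the labels each of these sets of mice came from 1 cage, so cage and genotype cannot be told apart. The Q175 libraries were also lower within each of the 3 sequencing lane numbers of the labels, by log2 differences of -0.29, -0.20 and -0.29 with 3, 4 and 1 Q175 libraries. For all 8 lists of cell type markers the summed CPM of Q175 and control libraries overlapped at 10 months. The neuronal list summed to 97496 to 110122 CPM in Q175 and 102577 to 119234 CPM in controls. Choroid plexus markers lay at 2525 to 3070 CPM in Q175 and 2470 to 10926 CPM in controls (log2 ratio of means -0.70). For the endothelial marker that ratio was 0.12. Overlap of ranges does not show equal levels, and Mir674 overlapped by this measure as well. The part of these markers in the result was not tested. In bulk cortex, fewer cells of a type and less RNA per cell cannot be told apart.

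At 6 months Mir674 did not show the same order. The Q175 libraries ranged from 303 to 379 CPM (median 351) and the Q20 libraries from 321 to 409 CPM (median 350), so the groups overlapped almost fully. The mean was 346 CPM in Q175 and 351 CPM in Q20. The fitted log2 difference was 0.0092 (SE 0.060), in a fit where 9 of 325 microRNAs (2.77%) passed FDR 0.05, and its sign was not stable: it was negative in 10 of 12 alternative settings, which ran from -0.068 to 0.0092. The change per 100 CAG was -0.041 (SE 0.033), and it was 0.012 (SE 0.044) without the Q175 mice and -0.011 (SE 0.036) with LB libraries only. The highest means at 6 months were in Q92 (381 ± 20.6 CPM, SD, n = 8) and Q111 (376 ± 19.6 CPM, SD, n = 8). In all 5 neighbouring pairs of genotypes the gap was smaller than the pooled SD of 25.4 CPM.

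Mir186 was lower in the longer-repeat lines at 6 months. The Q20 libraries ranged from 4358 to 5100 CPM with a median of 4494. The Q175 libraries lay at 3322, 4029, 4195, 4241, 4279, 4423, 4565 and 4584 CPM, and 5 of 8 were under the lowest Q20 library. In Q111 (3871 to 4500 CPM) and in Q140 (3908 to 4613 CPM) 5 of 8 libraries were also under that value. In Q80 and Q92 it was 2 and 0 of 8. The upper libraries of the 3 long-repeat lines overlapped the Q20 range. Against Q20 the fitted log2 difference of Q80 was -0.038, that of Q92 was -0.024, that of Q111 was -0.080, that of Q140 was -0.089 and that of Q175 was -0.12, with SEs from 0.034 to 0.068. The change per 100 CAG was -0.091 (SE 0.027), in a fit in which 9 of 327 microRNAs (2.75%) passed FDR 0.05.

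Library M3 of the Q175 group, at 3322 CPM the lowest and at 11646287 counts the deepest library of the series, carried part of that difference. Without it the Q175 mean was 4331 ± 203 CPM (SD, n = 7), the log2 difference from Q20 was -0.073 (SE 0.048) and the change per 100 CAG was -0.063 (SE 0.022). Q175 libraries were lower than Q20 in males by -0.19 and in females by -0.052 on the log2 scale, with 4 mice of each sex in each group. Among libraries with the code LB, 5 Q175 and 8 Q20 mice, the mean difference was -0.13. At 6 months 0 of 8 libraries each of Q80, Q92, Q140 and Q175 had a lane number of a Q20 library, and 4 of 8 of Q111 did. Lane and genotype therefore cannot be told apart in the 6-month values of any member, for Q111 in part. The 8 marker lists overlapped between Q175 and Q20 at 6 months, with neurons at 83686 to 92359 and 86179 to 99480 CPM. The smooth muscle markers, 2 of 3 in the table, lay at 20931 to 27654 CPM in Q175 and 25636 to 31430 CPM in Q20 (log2 ratio of means -0.21). The part of these markers in the result was not tested.

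At 10 months Mir186 showed no such order. The Q175 libraries ranged from 3814 to 4140 CPM (median 4015) and the controls from 3837 to 4603 CPM (median 3997). The change per 100 CAG was -0.0052 (SE 0.017), and the log2 difference of Q175 from controls was -0.045 (SE 0.031). The lower level of Mir186 at longer CAG lengths thus came mainly from the 6-month libraries. At 2 months the Q92 libraries were the high ones, at 4316 to 5155 CPM against 3901 to 4388 CPM in 16 controls. All 8 lay above the control median and 6 of 8 above the highest control, with a log2 difference of 0.13 (SE 0.033) that was known before these values were computed. At 2 months 0 of 327 microRNAs passed FDR 0.05 for Q92 in the edgeR fit, and 48 had an unadjusted p under 0.05.

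The fitted change of Mir708 with CAG length was small and negative at both ages. The genotype means did not fall in the order of CAG length at either age. At 6 months the Q140 libraries ranged from 772.2 to 931.5 CPM (median 828.6) and the Q20 libraries from 832 to 958 CPM (median 893). In Q140, 4 of 8 libraries were under the lowest Q20 library. The Q175 libraries ranged from 754 to 915 CPM (median 875), and 7 of 8 were under the Q20 median. The fitted log2 differences were -0.083 (SE 0.045) in Q140 and -0.029 (SE 0.051) in Q175. The Q175 value was the nearest to 0 of all settings run, with -0.069 (SE 0.045) without library F2, -0.047 (SE 0.050) without M3 and -0.062 (SE 0.048) with RLE normalization. The change per 100 CAG was -0.057 (SE 0.023). Q111 had the highest mean at 6 months, with a fitted log2 difference from Q20 of 0.026 (SE 0.053). The mean of Q175 lay above that of Q140. As for Mir186, lane and genotype cannot be told apart in these 6-month values. At 10 months the Q175 libraries ranged from 964 to 1111 CPM (median 1027) against 993 to 1146 CPM (median 1050) in controls, again with 7 of 8 under the control median. The log2 difference was -0.063 (SE 0.034) and the change per 100 CAG was -0.035 (SE 0.019). Only LB libraries gave -0.036 (SE 0.021) per 100 CAG at 6 months. In all neighbouring pairs of the genotype order, at each of the 3 ages, the gap was smaller than the pooled SD, which was 71.1, 43.6 and 52.7 CPM at 2, 6 and 10 months.

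With the Z statistics of Q at 6 and 10 months combined at equal weights, the values were -3.54 for Mir674, -2.97 for Mir708 and -2.49 for Mir186. The contributions differed in age. Mir674 had a Z of -1.24 at 6 months and -3.77 at 10 months, Mir186 had -3.22 and -0.299, and Mir708 had -2.39 and -1.82. Ordered from the most negative of 327 microRNAs they ranked 9, 26 and 19 for Mir674, Mir186 and Mir708. In the combined statistic 39 microRNAs passed FDR 0.05 (11.9%), 20 of them lower with Q (6.12%). Mir674 and Mir708 were among these and Mir186 was not, which follows from the values used to choose them and was not read as a result. The difference between the ages was not tested.

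**Figure D3:**
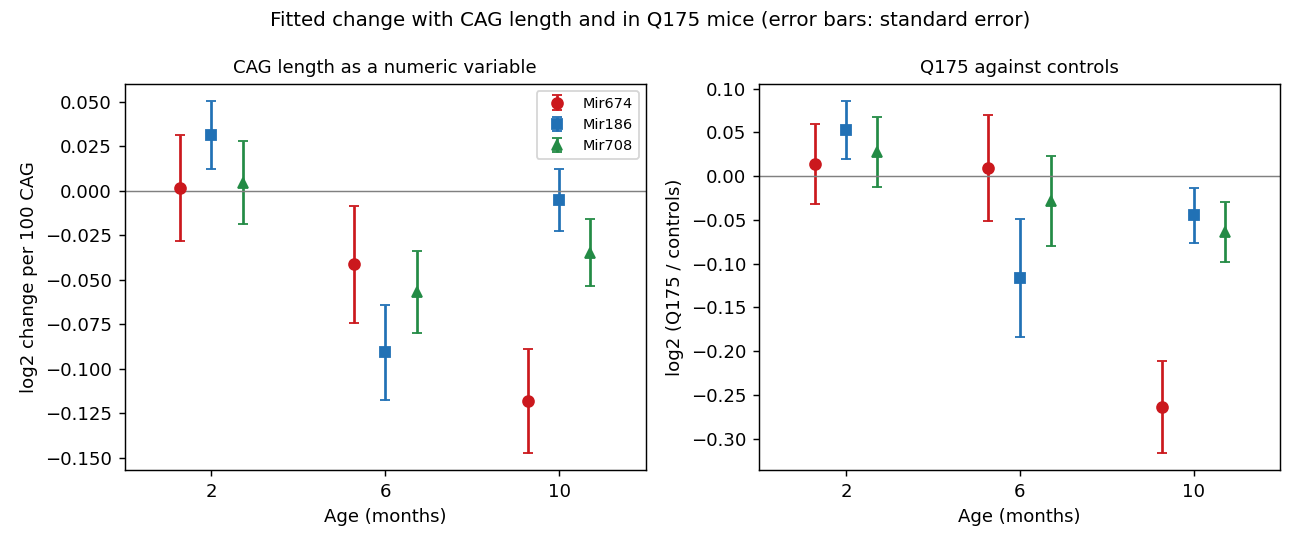
The fitted log2 change per 100 CAG repeats (left) and the log2 difference between Q175 and controls (right) are plotted against age in months, with standard errors as bars and 1 symbol for each microRNA. The lowest point is Mir674 in Q175 mice at 10 months, at -0.26, and the lowest for Mir186 is at 6 months, at -0.12.

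At 2 months, which the choice did not use, none of the 3 was associated with Q. The change per 100 CAG was 0.0016 for Mir674 (SE 0.030, 95% interval -0.057 to 0.060, edgeR adjusted p = 0.999). For Mir186 it was 0.031 (SE 0.019, interval -0.0060 to 0.069, edgeR adjusted p = 0.841), and for Mir708 it was 0.0046 (SE 0.023, interval -0.041 to 0.050, edgeR adjusted p = 0.999). The test called 0 of 327 microRNAs (0%), with 13 at an unadjusted p under 0.05, and the DESeq2 alternative also called 0. With the lane as a covariate the value of Mir674 was -0.030 (edgeR adjusted p = 0.765). Mir674 differed between the lanes at 2 months, with mean deviations from the group means of -0.097 in lane L7 and 0.029 in lane L2 on the log2 scale. The interaction of Q with sex at 6 and 10 months passed for 0 of 328 microRNAs (0%), with 26 at an unadjusted p under 0.05. For the members it was 0.032 (SE 0.039) for Mir674, -0.014 (SE 0.029) for Mir186 and -0.0031 (SE 0.031) for Mir708, with edgeR adjusted p values of 0.964, 0.982 and 0.998. The 95% intervals ran from -0.044 to 0.11 for Mir674, from -0.072 to 0.043 for Mir186 and from -0.063 to 0.057 for Mir708.

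In control cortex Mir674 was higher at 10 than at 2 months and Mir708 slightly higher, while Mir186 did not pass the test. The level of Mir674 was 311 ± 20.0 CPM (SD, n = 16) at 2 months and 373 ± 31 CPM (SD, n = 16) at 10 months. All 16 control libraries at 10 months lay above the 2-month median, and 12 lay above the highest 2-month library. The fitted log2 difference was 0.27 (SE 0.037, edgeR adjusted p = 2.63e-07), an increase of 20.4%. For Mir708 the mean at 2 months was 983 ± 56.9 CPM (SD, n = 16) and that at 10 months was 1054 ± 43.3 CPM (SD, n = 16), and the log2 difference was 0.11 (SE 0.032, edgeR adjusted p = 0.0052). By library size alone the value of Mir708 was 0.039 (edgeR adjusted p = 0.287), so its rise depended on the scaling. For Mir186 the means were 4187 ± 153 CPM at 2 months and 4070 ± 219 CPM at 10 months (SD, n = 16 each), a log2 difference of -0.035 (SE 0.026, edgeR adjusted p = 0.277). It passed by library size alone, at -0.10 (edgeR adjusted p = 0.0009). In this comparison 162 of 328 microRNAs passed FDR 0.05 (49.4%), 86 higher (26.2%) and 76 lower (23.2%) at 10 months. Of the lane numbers in the labels the 2 ages share only L7, so age and sequencing run cannot be told apart. The comparison also shares its 10-month controls with the Q175 contrast used in the choice. Choosing microRNAs that were low against these controls favours those with high 10-month control values, so the adjusted p values are not free of the choice.

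In each of the other genotypes except Q175, Mir674 was also higher at 10 than at 2 months. The mean log2 difference of Q80 and of Q92 was 0.31, that of Q111 was 0.34 and that of Q140 was 0.15, and the value for Q175 was -0.0087. In Q80, Q92 and Q111 all 8 libraries at 10 months lay above the highest 2-month library of the same genotype. In Q140 it was 6 of 8 and in Q175 it was 1 of 8. The 10-month level of Mir674 in Q175 mice, 314 CPM, was thus close to the 316 ± 30.6 CPM (SD, n = 8) of the same line at 2 months. For Mir708 the same difference ranged from 0.016 in Q175 to 0.15 in Q92, and for Mir186 from -0.17 in Q92 to -0.0099 in Q111. These genotype differences were not tested, since they contain the contrast used in the choice.

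**Figure D4:**
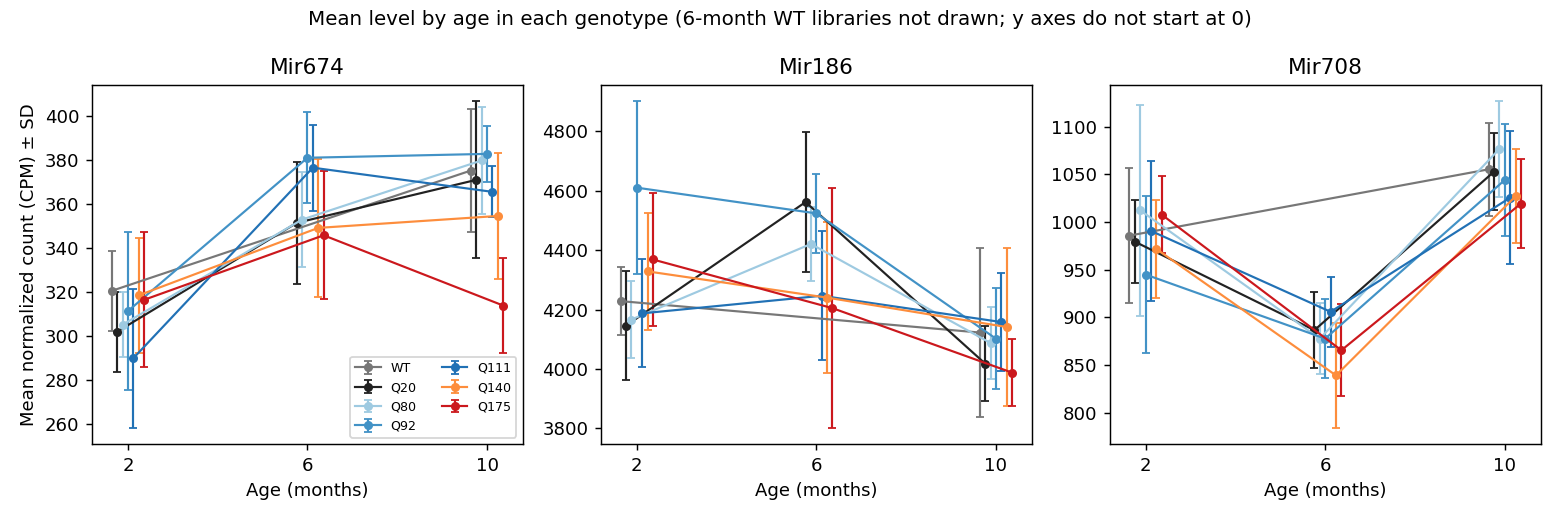
Mean normalized count (CPM) with SD (n = 8) is plotted at 2, 6 and 10 months for each genotype, without the 6-month WT libraries. For Mir674 the Q175 line ends at 314 CPM where the other genotypes end between 354 and 383 CPM. For Mir708 each knock-in line is lowest at 6 months, where WT has no point. The 6-month knock-in libraries carry library numbers of another series than those of 2 and 10 months, so age and series cannot be told apart.

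Mir186 was lower in males. Over 160 libraries the means were 4307 ± 257 CPM in 80 females and 4178 ± 251 CPM in 80 males (SD), and the fitted log2 difference of males from females, with genotype and age in the fit, was -0.046 (SE 0.011, edgeR adjusted p = 0.0067). The male mean was under the female mean in 17 of 20 groups, with differences from -0.17 to 0.051, and the differences by age were -0.043, -0.058 and -0.033 at 2, 6 and 10 months. Mir186 was 1 of 3 microRNAs of 328 (0.915%) that passed FDR 0.05. The call rested on few libraries: without library F3 of Q111 at 2 months the edgeR adjusted p was 0.0684, without M2 of Q20 at 2 months it was 0.0522, without F1 of Q92 at 2 months it was 0.0709, and without all 7 libraries that stood apart it was 0.178 at a difference of -0.032. Mir674 was lower in males in 16 of 20 groups, by -0.054 (SE 0.017), and did not pass (edgeR adjusted p = 0.118). Its means were 349 ± 36.7 CPM in females and 337 ± 39.0 CPM in males (SD, 80 libraries each). For Mir708 the difference was -0.0094 (SE 0.013, edgeR adjusted p = 0.855), with males lower in 7 of 20 groups.

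WT and Q20 mice of 2 and 10 months did not differ detectably in any of the 3 microRNAs. The log2 differences of WT from Q20 at 2 months were 0.087 (SE 0.046) for Mir674, 0.030 (SE 0.040) for Mir186 and 0.010 (SE 0.050) for Mir708, with edgeR adjusted p values of 0.851, 0.882 and 0.956. At 10 months they were 0.024 (SE 0.065), 0.045 (SE 0.041) and 0.011 (SE 0.044), with edgeR adjusted p values of 0.916, 0.833 and 0.937. The edgeR test called 0 of 326 and 0 of 325 microRNAs (0%) at these ages, while 14 and 12 had an unadjusted p under 0.05, and DESeq2 called 0 at both as well.

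At 6 months Mir708 was 65.7% higher in the libraries labelled WT than in Q20. The WT libraries lay at 840, 1431, 1448, 1457, 1477, 1488, 1552 and 1839 CPM, and the Q20 libraries lay between 832 and 958 CPM. The groups were apart except for WT library F3, the only WT library inside the Q20 range. The log2 difference was 0.73 (SE 0.11, edgeR adjusted p = 2.57e-05), and without F3 it was 0.82 (SE 0.058, edgeR adjusted p = 1.44e-10). Across 264 microRNAs, F3 was also nearer to the Q20 median profile (root mean square difference 0.530 on the log2 scale) than to that of the other WT libraries (0.807). It was the only 1 of 8 WT libraries of which this held, and all 8 Q20 libraries were nearer to Q20. On the marker lists F3 stood with neither group throughout. The 3 markers of microglia and white blood cells summed to 464.1 CPM in F3 and Mir122 was at 10.8 CPM, both inside the range of the other 7 WT libraries and outside that of Q20. Its erythrocyte markers (2854 CPM), smooth muscle markers (12207 CPM) and oligodendrocyte markers (4160 CPM) lay outside the ranges of both groups. Library F3 thus stood apart from the other WT libraries, and these values do not settle whether its label is right.

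This comparison called 177 of 322 microRNAs (55.0%), 94 higher (29.2%) and 83 lower (25.8%), where the same genotypes gave 0 at the other ages. Genotype and library series cannot be told apart in it. Mir674 (0.073, SE 0.081, edgeR adjusted p = 0.477) and Mir186 (0.073, SE 0.053, edgeR adjusted p = 0.258) did not pass, and both values turned negative by library size alone, which moved the median of all microRNAs by -0.16. Of the 8 marker lists 6 overlapped between these groups with F3, and 3 of 8 overlapped without it. The 3 markers of microglia and white blood cells in the table summed to 397 to 488 CPM in WT and 721 to 1069 CPM in Q20. Mir122 was at 4.04 to 11.3 CPM in WT and 0.827 to 2.62 CPM in Q20. The other 3 lists that were apart without F3 were erythrocytes (5869 to 8410 CPM in the 7 WT libraries, 3249 to 3861 CPM in Q20), oligodendrocytes (2012 to 2286 against 2900 to 3740 CPM) and neurons (100342 to 142190 against 86179 to 99480 CPM). The neuron list holds Mir138-1, whose group means were among the most like those of Mir708. The part of these markers in the level of Mir708 was not tested. With the 6-month WT libraries taken as controls, the change of Mir708 per 100 CAG at 6 months was -0.33 (SE 0.060) in place of -0.057.

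**Figure D5:**
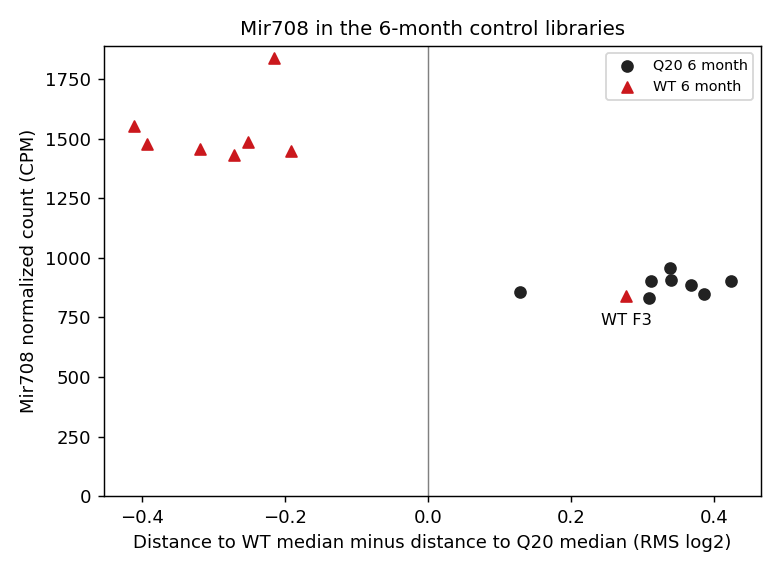
Mir708 (CPM) in the 8 Q20 and 8 WT libraries of 6 months is plotted against the distance of each library to the WT median profile minus its distance to the Q20 median profile (root mean square log2 over 264 microRNAs), so libraries right of the line are nearer to Q20. WT library F3 lies with the Q20 libraries at 840 CPM, and the other 7 WT libraries lie between 1431 and 1839 CPM.

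None of the seed relatives passed the test for Q at any age. They are not in the list of tested microRNAs and were fitted with all transcripts as features, where 0 of 1361 passed at 2 months (0%, with 0 also by DESeq2 over the listed microRNAs), 20 of 1299 at 6 months (1.54%) and 28 of 1375 at 10 months (2.04%). Mir28a, which shares the seed of Mir708-5p, was at 80.3 ± 7.27 CPM (SD, n = 16) in 10-month controls and 87.9 ± 9.93 CPM (SD, n = 8) in Q175, a log2 difference of 0.12 (SE 0.070, edgeR adjusted p = 0.466) in a fit where 26 of 1190 transcripts passed (2.18%). Its change per 100 CAG was -0.0079 (SE 0.031) at 6 months and 0.033 (SE 0.034) at 10 months, with edgeR adjusted p values of 0.974 and 0.804. In the 6-month WT libraries it lay at 76.4 to 95.7 CPM against 88.2 to 99.0 CPM in Q20, a log2 difference of -0.11 (SE 0.086, edgeR adjusted p = 0.379), where Mir708 was higher in WT. With age in controls it fell by 0.15 on the log2 scale (SE 0.050, edgeR adjusted p = 0.0296), 1 of 212 of 1289 transcripts that passed (16.4%). The median log2 difference of all transcripts in that fit was -0.068, beside 0.00037 in the fit of the listed microRNAs. Mir708 was positive in the fit of all transcripts but did not pass (0.069, edgeR adjusted p = 0.186). Mir151, which family lists group with Mir28, had edgeR adjusted p values for Q of 0.783, 0.996 and 0.977 at 2, 6 and 10 months. It also fell with age in controls, by 0.13 on the log2 scale (SE 0.034, edgeR adjusted p = 0.0040), and like Mir708 it was higher in 6-month WT than in Q20, by 0.26 (SE 0.097, edgeR adjusted p = 0.0495). Mir28b averaged 0.411 counts per library and was too rare to compare. Mir1947 and Mir3473d, with the seed of Mir674-5p, averaged 28.5 and 11.5 counts per library. At 10 months their changes per 100 CAG were -0.14 (SE 0.11) and 0.042 (SE 0.13), with edgeR adjusted p values of 0.684 and 0.977. These SEs are about as large as the change of Mir674, so a change of its size was not detectable in them. Mir1947 was lower in 6-month WT than in Q20 (4.47 ± 1.15 against 8.88 ± 1.47 CPM, SD, n = 8 each, edgeR adjusted p = 6.4e-05), where 259 of 1093 transcripts passed (23.7%). With age in controls Mir1947 fell by 0.43 on the log2 scale (SE 0.15, edgeR adjusted p = 0.0382), where Mir674 rose.

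The members differed in how their levels varied over groups. Over the 20 genotype and age groups without 6-month WT, the Pearson correlation of mean log2 CPM was -0.087 for Mir674 and Mir186, -0.016 for Mir674 and Mir708, and -0.63 for Mir186 and Mir708. Within groups, over 160 libraries, the correlations were 0.14, 0.24 and -0.058. Group means share libraries, depth and normalization, and age is part of them. The microRNAs whose group means were most like Mir674, of 263 compared, were Mir144 (r = 0.86), Mir203 (r = 0.82) and Mir34a (r = 0.82). For Mir186 they were Mir344d-1 (r = 0.80), Mir148a (r = 0.74) and Mir92b (r = 0.68). For Mir708 they were Mir138-1 (r = 0.96), Mir129-1 (r = 0.96) and Mir193a (r = 0.95). The correlations within groups of the same pairs ran from -0.29 for Mir186 and Mir92b to 0.14 for Mir674 and Mir34a, so the likeness was between group means and not between mice.

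Of the listed microRNAs, 132 lay like Mir186 and Mir708 in an intron of a protein-coding gene on the same strand. For Q at 6 months 4 of these 132 passed FDR 0.05, 2 lower and 2 higher (3.03%), beside 2.75% of all 327. At 10 months 8 of 132 passed, 4 lower and 4 higher (6.06%), beside 8.84% of all 328. Their median change per 100 CAG was -0.013 at 6 months and -0.0032 at 10 months, beside -0.0044 and -0.00029 over all. From 2 to 10 months in controls 65 of 132 passed, 40 higher and 25 lower (49.2%).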

How the data were processed

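Cortex small RNA of 168 mice was analysed. RNA was sequenced single end and strand-specifically on Illumina HiSeq instruments. Per the labels CASAVA 1.8.2 processed the reads, and the methods name clipping, STAR and HTSeq. The authors deposited an estimated count per Ensembl transcript without normalization, where 48.1% of values above 0 are not whole, and a table of FPKM values that was not used. Estimated counts were rounded. Groups came from the labels. In 2 libraries the sex of the label differs from that of the cage, and the cage was used.

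MicroRNAs tested were the 329 of a list of 480 symbols with a transcript of the same GENCODE name and at least 1 count in a fit. edgeR 4.0.16 in R 4.3.3 was used with TMM, library totals over all transcripts and its two-sided robust quasi-likelihood test. Covariates were sex and the library code (V or LB) of 6-month libraries. The Benjamini-Hochberg adjustment ran over all microRNAs, at FDR 0.05. SEs came from the coefficient and its F statistic, and intervals are the coefficient ± the normal 95% quantile of the SE. Replicates are separate mice. The code was tested on simulated data. Alternatives were RLE, library size alone, DESeq2 1.42.0, filterByExpr, all transcripts, a replicate block, lane, sex of the labels, and omitted libraries or groups.

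The members, lists and tests were chosen with earlier results of these data known. Named microRNAs were the members, microRNAs that share a seed or lie within 200 kb, Mir28a, Mir28b and Mir151 as named relatives, and for each member the 3 with the highest correlation of group means. The libraries left out singly were chosen after seeing the data. Of 14028 pairs of libraries, 0 were identical.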

Additional observations from a re-analysis of the deposited data

Results flagged for a closer look

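Of 63 sets of 8 libraries (3 microRNAs in 21 groups), 9 held a library far from the other 7 by Dixon's test, where chance alone flags about 5%. In Mir674 it was library F3 of Q20 at 6 months, the highest at 409 CPM with the next at 361 CPM. The same library was highest in Mir186, at 5100 CPM with the next at 4646 CPM. In Mir186 the highest libraries were also F3 of Q111 at 2 months (4604 CPM), F1 of Q140 at 2 months (4751 CPM) and M2 of WT at 6 months (5089 CPM). The lowest was M3 of Q175 at 6 months, at 3322 CPM with the next at 4029 CPM. In Mir708 the flagged libraries were all low: M4 of Q175 at 2 months (918 CPM), F3 of WT at 6 months (840 CPM, the next at 1431 CPM) and F2 of Q175 at 6 months (754 CPM, the next at 859 CPM). Of these, F3 of Q111 at 2 months is also among the 7 libraries that stood apart by connectivity.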

How the results depend on the processing

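Over 24 alternative settings, 319 of 351 values of the members kept their direction and their side of the threshold or moved by less than the SD between mice. The cause of the others was not tested. That SD (0.0710 to 0.113 on the log2 scale) was as large as many of the changes, so the count does not measure stability. The 10-month change of Mir674 with Q, -0.12, counted as kept at -0.035 without Q175. Changes of sign in the untested 6-month values of Mir674 counted as kept too. By library size alone the change of Mir674 with Q at 2 months was -0.00016, WT minus Q20 was -0.00052 (2 months) and -0.012 (10 months) for Mir708 and -0.10 for Mir674 and -0.096 for Mir186 at 6 months, and the interaction of Q and sex was 0.0018 for Mir708. With all transcripts as features WT minus Q20 was -0.010 and -0.0061 for Mir708 at 2 and 10 months and -0.026 and -0.027 for Mir674 and Mir186 at 6 months, and the interaction of Q and sex was 0.00037 for Mir186 and 0.014 for Mir708. With lane as a covariate Mir674 was at -0.030 with Q at 2 months, and Mir708 at -0.0012 for WT minus Q20 at 10 months. Without Q175 the change with Q at 2 months was -0.013 for Mir674 and -0.0085 for Mir708. Without the 7 libraries that stood apart WT minus Q20 at 10 months was -0.032 for Mir674 and -0.0087 for Mir708, and the interaction of Q and sex was 0.0024 for Mir708. None of these values passed the test in either setting. At 6 months, where no test was made, Q175 minus Q20 for Mir674 (0.0092) was negative in 10 of 12 settings, and its change with Q (-0.041) was 0.012 without Q175, where the change of Mir186 with Q at 10 months (-0.0052) was 0.022.

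The sex difference of Mir186 no longer passed with all transcripts (-0.046, edgeR adjusted p = 0.0674) or without the 7 libraries (-0.032), and ranged from -0.046 to -0.040 without 1 of them. From 2 to 10 months Mir186 passed by library size alone (-0.10) and with filterByExpr (-0.085), and Mir708 no longer passed by library size alone (0.039), with filterByExpr (0.057) or with all transcripts (0.069). With the 6-month WT libraries as controls Mir708 changed by -0.33 per 100 CAG, and Q175 minus controls was -0.19 for Mir186 and -0.48 for Mir708.

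The count of microRNAs that passed for Q at 6 months, 9, became 156 with 6-month WT, 15 without the library code, 3 with LB libraries only and 0 without Q175, and 4 to 7 without 1 Q175 library (4 without M3). For Q at 10 months, 29, it became 19 with all transcripts and 1 without Q175. For Q175 at 6 months, 9, it became 3 with RLE, 3 by library size alone, 5 with all transcripts, 0 with 6-month WT, 15 without the library code, 4 with LB libraries only, and 3 to 4 without 1 library (3 without M3, 4 without F2). For Q175 at 10 months, 40, it became 19 with all transcripts. The counts given here with all transcripts as features take in the listed microRNAs alone. They therefore differ from the 28 of 1375 (Q) and 26 of 1190 (Q175) transcripts that passed at 10 months. Replicate numbers did not pair the mice: the mean correlation of deviations was -0.022, -0.019 and -0.0089 for libraries of the same number at 2, 6 and 10 months, and the replicate block moved the count for Q at 6 months to 15 and no call of a member. Depth limits the comparison for rare relatives.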
